A study of Sus scrofa with 8 samples.

Results

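The genes described here are the PAX, LHX, NKX, IRX and SIX-family genes of the pig, which encode transcription factors that pattern the embryo. They were chosen by name: every protein-coding gene on chromosomes 1 to 18 whose RefSeq symbol is 1 of these 5 prefixes and a digit, without LHX1. The rule gave 40 of the 16298 protein-coding genes analysed, namely 8 PAX, 6 SIX-family, 6 LHX, 14 NKX and 6 IRX genes. The mark measured by ChIP-seq was H3K27ac, acetylation of lysine 27 on histone H3, which marks promoters and enhancers in use. Epiblast stem cells of the stage before gastrulation, with the epiblast of embryonic day 10 as their source, are called pgEpiSC, and embryonic fibroblasts, given as fetal and of day 30, are called pEF. No treatment, genotype or breed is named in the labels, nor the body region of the fibroblasts. There were 2 H3K27ac libraries of each type, numbered 1 and 4 for pgEpiSC and 1 and 2 for pEF, with an input library for each. Nothing in the labels tells if a type's libraries are from separate cultures or animals, so every p-value measures only the spread between these libraries, which may be technical.

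For each H3K27ac library the authors' list gives islands, which are runs of enriched windows, with their ChIP and input reads and the fold of ChIP over input scaled to library size. Between 57790 and 74208 islands per library held 29679982 to 46383051 ChIP reads. The lists differed between the types in a way that touches every comparison below: the median island had a fold of 1.80 and 1.67 in pgEpiSC 1 and 4 and of 3.47 and 3.46 in pEF 1 and 2, and islands covered 409 and 414 Mb in pgEpiSC against 273 and 275 Mb in pEF. The kb under islands within a gene's body and the 10 kb to each side is called its acetylated length. It was compared by limma on log2(kb + 1), a scale that understates the change of short lengths, and a gene passed at an adjusted p under 0.05. Errors are SDs over n = 2 libraries unless named otherwise.

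PAX proteins bind DNA through a paired domain, and SIX-family, LHX, NKX and IRX proteins through homeodomains. In the embryo PAX and SIX-family factors work with EYA and DACH cofactors in muscle, kidney, ear and eye, LHX factors work with LDB cofactors in the limb, gonad and nervous system, NKX factors mark the heart, gut, thyroid, lung, neural tube and sclerotome, and the Iroquois (IRX) genes, which lie in clusters, subdivide limb, heart and neural tissue. Such genes are known to be active in few cell types and silent in most others, and the question put to these data is which of them carry active chromatin in an epiblast stem cell and which in a fibroblast.

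Acetylated length was higher in pEF at 9 of the 40 genes and higher in pgEpiSC at 9 others, and 22 did not pass. Over all genes tested, 10.9 percent were higher in pEF and 31.9 percent in pgEpiSC, and the median difference was 0.46 on the log2 scale toward pgEpiSC. Over the 40 the median was 0, the value of genes with no island in any library. The 9 higher in pEF were PAX1, PAX9, SIX2, SIX3, LHX9, NKX2-2, NKX3-2, IRX2 and IRX5. Among the 9 higher in pgEpiSC were PAX3, PAX5, PAX7, LHX5, LHX8, NKX1-2, NKX6-2 and NKX6-3. Counted by family, first for pEF and then for pgEpiSC, they were 2 and 3 of 8 PAX, 2 and 0 of 6 SIX-family, 1 and 2 of 6 LHX, 2 and 4 of 14 NKX and 2 and 0 of 6 IRX genes. The 2 groups of libraries did not overlap at 24 of the genes, 12 with pEF above and 12 with pgEpiSC above, where the same happened at 21.9 and 52.3 percent of all genes. NKX2-6 is among those with pgEpiSC above, with only 0.601 and 0.001 kb in pgEpiSC. With only islands of at least 2-fold over input, 15 genes were higher in pEF, the same 9 among them, and LHX5 alone of the 9 in pgEpiSC passed. Over all genes that filter gave 2692 higher in pEF (16.5 percent) and 1150 in pgEpiSC (7.06 percent), where the unfiltered lists gave 1773 and 5196.

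**Figure D1:**
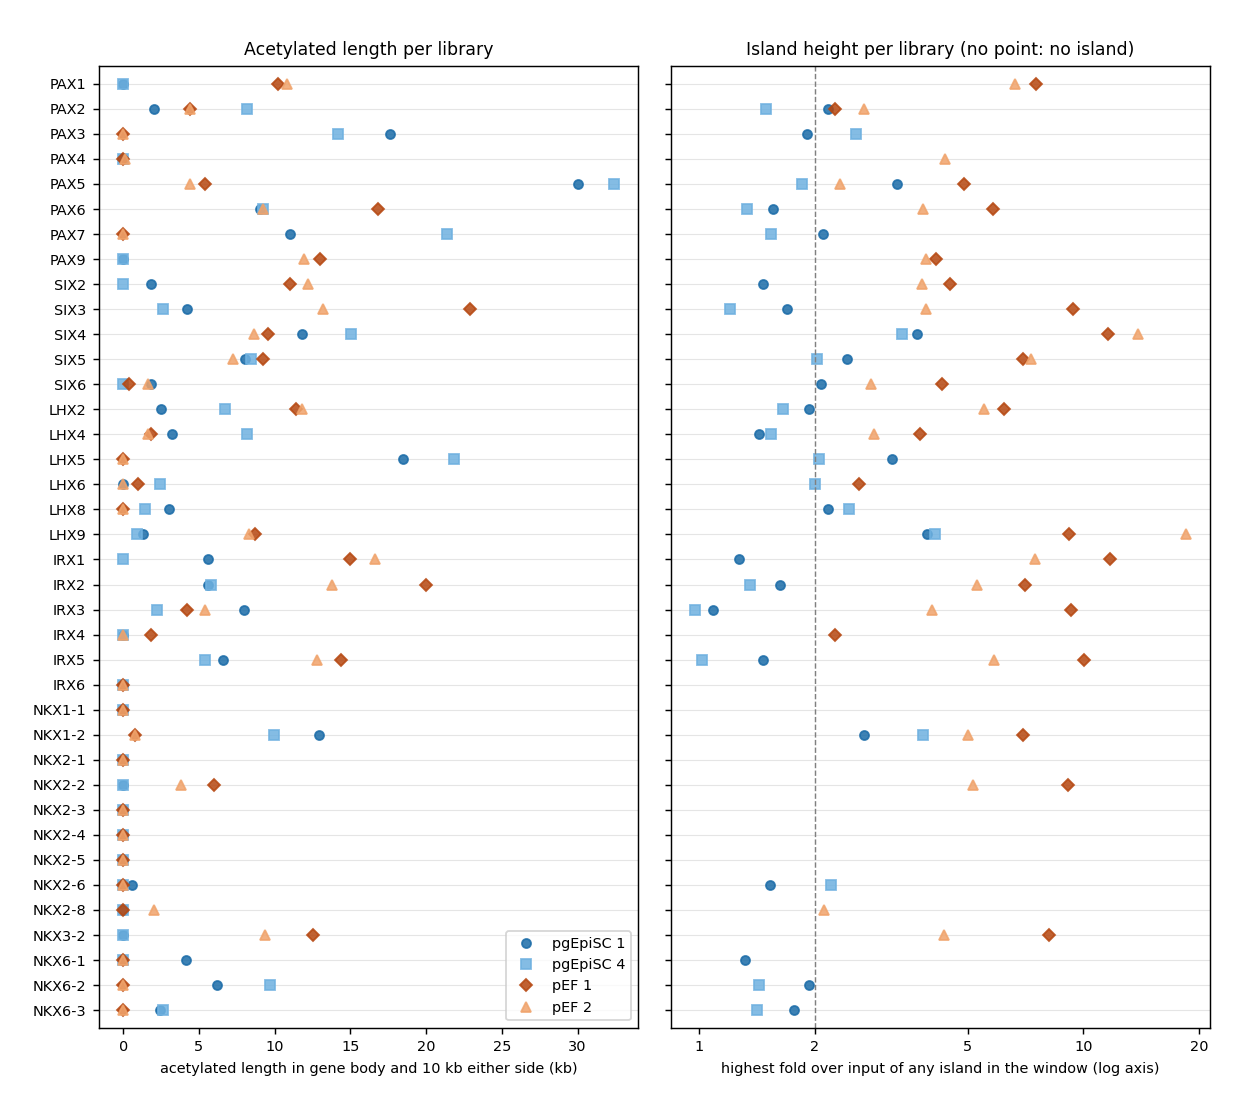
Each of 38 of the 40 genes is a row, with 1 point per library: on the left its acetylated length in kb, on the right the highest fold over input of any island there (log axis, dashed line at 2). The pEF points lie to the right of the pgEpiSC points in height at most loci that hold both, and PAX5 has the greatest length, at 30 and 32.4 kb in pgEpiSC.

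PAX1, PAX9 and NKX3-2 act in the sclerotome, the part of the somite that forms the axial skeleton. All 3 had islands in pEF and none in pgEpiSC. They are grouped here with their values known and do not stand for every sclerotome gene. Of 6 cartilage and bone markers, 2 were higher in pgEpiSC and 2 in pEF. PAX1 was covered over 10.2 kb in pEF 1 and 10.8 kb in pEF 2, in a single island of each library that lay wholly inside the gene body, and over 0 kb in both pgEpiSC libraries (adjusted p = 0.00290, limma). PAX9, its paralogue in sclerotome, tooth and pharyngeal pouches, had 13.0 and 11.9 kb in pEF and 0 kb in pgEpiSC (adjusted p = 0.00290). NKX3-2, also called BAPX1, which acts with them in cartilage precursors, had 12.5 and 9.34 kb in pEF and 0 kb in pgEpiSC (adjusted p = 0.00423). All 3 thus separated the types completely, and for PAX1 and PAX9 the call was kept under all 12 alternative settings tried. With either pEF library left out, the only pair remaining was pgEpiSC at 0 kb in both. Such a pair has no spread, so those settings are a weak check. At NKX3-2 leaving out pgEpiSC 1 or pgEpiSC 4 ended it (adjusted p = 0.0526 and 0.0559). The islands at PAX1 reached 7.53- and 6.65-fold over input, and those reaching the NKX3-2 window 8.15- and 4.33-fold. These NKX3-2 islands lay from -14.4 to -10 kb and from -14.2 to -10.2 kb around the middle of the gene. The islands over the NKX3-2 body stood at 6.57- and 3.18-fold. At PAX9, 3.4 and 2.0 of the acetylated kb in pEF lay in SLC25A21, a neighbouring gene of the same window.

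NKX2-2, a homeodomain factor of the ventral neural tube and pancreas that lies between NKX2-4 and PAX1 on chromosome 17, had 6.0 and 3.8 kb in pEF and 0 kb in pgEpiSC (adjusted p = 0.00893, limma). Its highest island stood at 9.14-fold in pEF 1 and 5.17-fold in pEF 2. Leaving out pgEpiSC 1 or pgEpiSC 4 ended the call (adjusted p = 0.0848 and 0.0879). PAX1, PAX9, NKX3-2 and NKX2-2 were the 4 genes of the 40 with islands in both pEF libraries and none in either pgEpiSC library, a pattern held by 2.90 percent of all genes. The reverse pattern was held by 7 of the 40 and by 4.46 percent of all genes. Of these 7, NKX2-6 had only 0.601 and 0.001 kb in pgEpiSC, none of it in the gene body. Of the neighbours of NKX2-2 among the 40 genes, PAX1 held the pEF pattern, at a gap of 141.5 kb, and NKX2-4 had no island in any library. The neighbours of PAX9 among the 40 genes were without the pattern. NKX2-8, at a gap of 71.8 kb from PAX9 on chromosome 7, had 2.0 kb in pEF 2 only, and NKX2-1 beyond it had no island.

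The median acetylated length of the 6 SIX-family genes was 10.3 and 10.4 kb in pEF and 6.0 and 2.2 kb in pgEpiSC. SIX2, which maintains nephron progenitors and is active in facial mesenchyme, had 1.8 and 0 kb in pgEpiSC and 11 and 12.2 kb in pEF (log2 difference -2.91 ± 0.61, SE, adjusted p = 0.0411). SIX3, known for the forebrain and eye, had 4.2 and 2.6 kb in pgEpiSC and 22.9 and 13.2 kb in pEF (log2 difference -2.09 ± 0.40, SE, adjusted p = 0.0336). The 2 pEF libraries differed from each other at SIX3, and leaving out any 1 library ended its call (adjusted p = 0.0840 to 0.161). The call at SIX2 ended without pEF 1 (0.181), pEF 2 (0.190) or pgEpiSC 4 (0.0504) and with a pseudocount of 0.2 kb (0.0970). A window of 50 kb ended both (0.143 for SIX3 and 0.185 for SIX2).

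SIX4, SIX5 and SIX6 did not pass. SIX4, a paralogue known from muscle and sensory ganglia, had 11.8 and 15 kb in pgEpiSC and 9.58 and 8.6 kb in pEF (log2 difference 0.51 ± 0.18, SE, adjusted p = 0.114). SIX5, a gene next to DMPK, had 8.06 and 8.46 kb in pgEpiSC and 9.26 and 7.26 kb in pEF, with a log2 difference of 0.01 ± 0.19 (SE), and 4.0 to 5.6 of these kb lay in DMPK or BHMG1. SIX6, a paralogue of SIX3 in eye and pituitary, had at most 1.8 kb in any library.

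In the IRX family 2 of the 6 genes, IRX5 and IRX2, were higher in pEF. IRX5 had 6.6 and 5.4 kb in pgEpiSC and 14.4 and 12.8 kb in pEF (log2 difference -1.06 ± 0.18, SE, adjusted p = 0.0264, limma). IRX2 had 5.6 and 5.78 kb in pgEpiSC and 20 and 13.8 kb in pEF (log2 difference -1.40 ± 0.24, SE, adjusted p = 0.0272). The groups were apart at both, but leaving out any 1 library ended both calls (adjusted p = 0.0552 to 0.143 for IRX2 and 0.0730 to 0.127 for IRX5), as did the gene body alone, a window of 50 kb and islands with an FDR under 1e-10. IRX1 had 5.6 and 0 kb in pgEpiSC and 15 and 16.6 kb in pEF, and did not pass (log2 difference -2.71 ± 1.1, SE, adjusted p = 0.145). IRX1 did pass when centred (0.0432), with islands of at least 2-fold (0.00693) or an FDR under 1e-10 (0.00360), and without pgEpiSC 1 (0.0298). IRX3 overlapped between the types in length, at 8.0 and 2.2 kb against 4.2 and 5.4 kb, but not in height: its islands stood at 1.09- and 0.98-fold in pgEpiSC and at 9.30- and 4.04-fold in pEF, and IRX3 was higher in pEF once islands under 2-fold (adjusted p = 0.00761) or with an FDR above 1e-10 (0.00527) were left out. IRX4 had 1.8 kb in pEF 1 only, and IRX6 had no island in any library. The genes of a cluster therefore differed among themselves, with IRX1 and IRX2 acetylated and IRX4 nearly bare, and IRX3 and IRX5 acetylated and IRX6 bare.

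LHX9, a LIM-homeodomain factor of gonad and limb, had 1.28 and 0.878 kb in pgEpiSC and 8.68 and 8.28 kb in pEF (log2 difference -2.20 ± 0.18, SE, adjusted p = 0.00790, limma). All of the pgEpiSC kb lay in C10H1orf53, whereas 6.2 and 6.8 kb of the pEF islands lay in the body of LHX9. Leaving out pEF 1 or pEF 2 ended the call (adjusted p = 0.0520 and 0.0510). LHX2, which acts with LHX9 in limb outgrowth, had 2.49 and 6.69 kb in pgEpiSC and 11.4 and 11.8 kb in pEF, with the groups apart, and did not pass (adjusted p = 0.126). LHX2 did pass when centred (0.0196), with islands of at least 2-fold (0.00692) or an FDR under 1e-10 (0.0143), and without pgEpiSC 4 (0.0470).

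**Figure D2:**
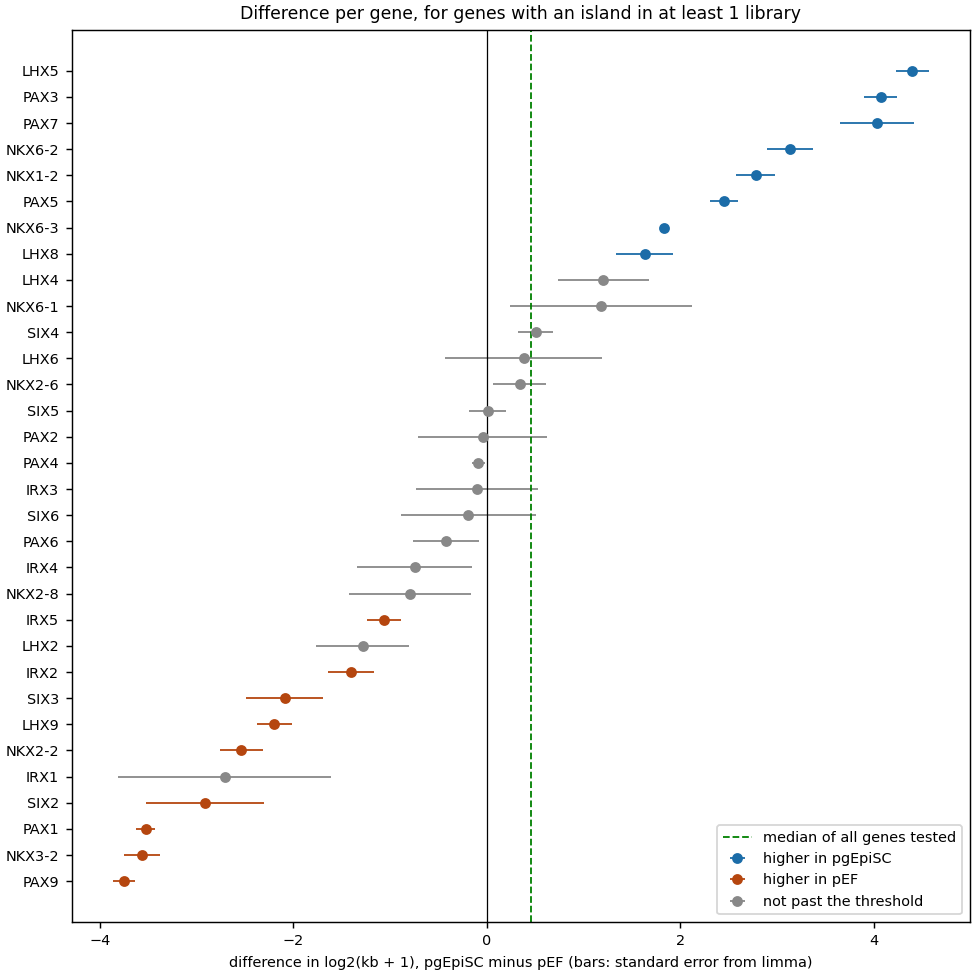
Difference in log2(kb + 1), pgEpiSC minus pEF, with its standard error from limma, for 32 of the 34 genes that any library's islands reached. Of these, 9 pass toward pEF and 8 toward pgEpiSC, and the dashed line marks the median of all genes tested, at 0.46.

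In pgEpiSC the greatest difference was at LHX5, a LIM-homeodomain gene of the early forebrain. It had 18.5 and 21.9 kb in pgEpiSC against 0 kb in each pEF library (adjusted p = 0.00295, limma). The islands covered 5.1 and 6.5 kb of its 9.68 kb body and more of its flanks, and stood at up to 3.17- and 2.05-fold over input. LHX5 alone among the 9 passed with islands of at least 2-fold (10.8 and 9.0 kb against 0 kb, adjusted p = 0.00714), while a window of 50 kb, which takes in islands of pEF 1, ended the call (adjusted p = 0.0643). LHX8, a gene of forebrain cholinergic neurons and oocytes, had 3.0 and 1.4 kb in pgEpiSC and 0 kb in pEF (adjusted p = 0.0309), and lost the call once values were centred (adjusted p = 0.107), with islands of at least 2-fold (0.0550), with a pseudocount of 5 kb (0.0537) and without either pEF library (0.162 for each).

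PAX3 and PAX7, paralogues that mark the dermomyotome and neural crest, were acetylated in pgEpiSC inside their long gene bodies and not near their ends. PAX3 had 17.6 and 14.2 kb in pgEpiSC against 0 kb in each pEF library (adjusted p = 0.00324, limma), with 15.8 and 14.0 kb of it in the gene body. PAX7 had 11 and 21.4 kb in pgEpiSC, all in the body, and 0 kb in pEF (adjusted p = 0.00997). These islands were low: no more than 0.198 kb at PAX3 and 1.8 kb at PAX7 reached 2-fold over input in either pgEpiSC library, and neither gene passed with such islands alone (adjusted p = 0.453 for each). The call at PAX7 also ended without pEF 1 or pEF 2 (0.0805 and 0.0806). PAX5, the B cell commitment factor, had 30 and 32.4 kb in pgEpiSC and 5.4 and 4.4 kb in pEF (log2 difference 2.45 ± 0.15, SE, adjusted p = 0.00520), in 7 islands of each pgEpiSC library. With islands of at least 2-fold its sign turned, at 1.0 and 0 kb in pgEpiSC against 5.4 and 2.6 kb in pEF, without passing (adjusted p = 0.128), and the call ended without pgEpiSC 1 or pgEpiSC 4 (0.0526 and 0.0570).

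NKX1-2, a gene of the caudal epiblast and its neuromesodermal progenitors, had 12.9 and 9.93 kb in pgEpiSC against 0.8 kb in each pEF library (log2 difference 2.78 ± 0.20, SE, adjusted p = 0.00677, limma). Its flanks held 11 and 9.1 of those kb, and the acetylation went on beyond the window: 57.4 kb of the bands from 10 to 50 kb out were covered in each pgEpiSC library and 1.4 and 1.6 kb in pEF, a stretch that holds the genes LHPP and OAT. Leaving out pEF 1 or pEF 2 ended the call (adjusted p = 0.0580 and 0.0587). NKX6-2, a factor of the ventral neural tube and oligodendrocytes, had 6.2 and 9.71 kb in pgEpiSC and 0 kb in pEF (adjusted p = 0.00732). None of it lay in the NKX6-2 body, and 6.2 and 5.8 kb lay in INPP5A. This call too ended without either pEF library (0.0669 and 0.0676). NKX6-3, known from the stomach, had 2.45 and 2.65 kb in its flanks in pgEpiSC and 0 kb in pEF (adjusted p = 0.00290), but no island there had an FDR under 1e-10 or a fold of 2. For these NKX genes the acetylated length in pgEpiSC was thus mostly flanking chromatin, some of it within other genes.

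**Figure D3:**
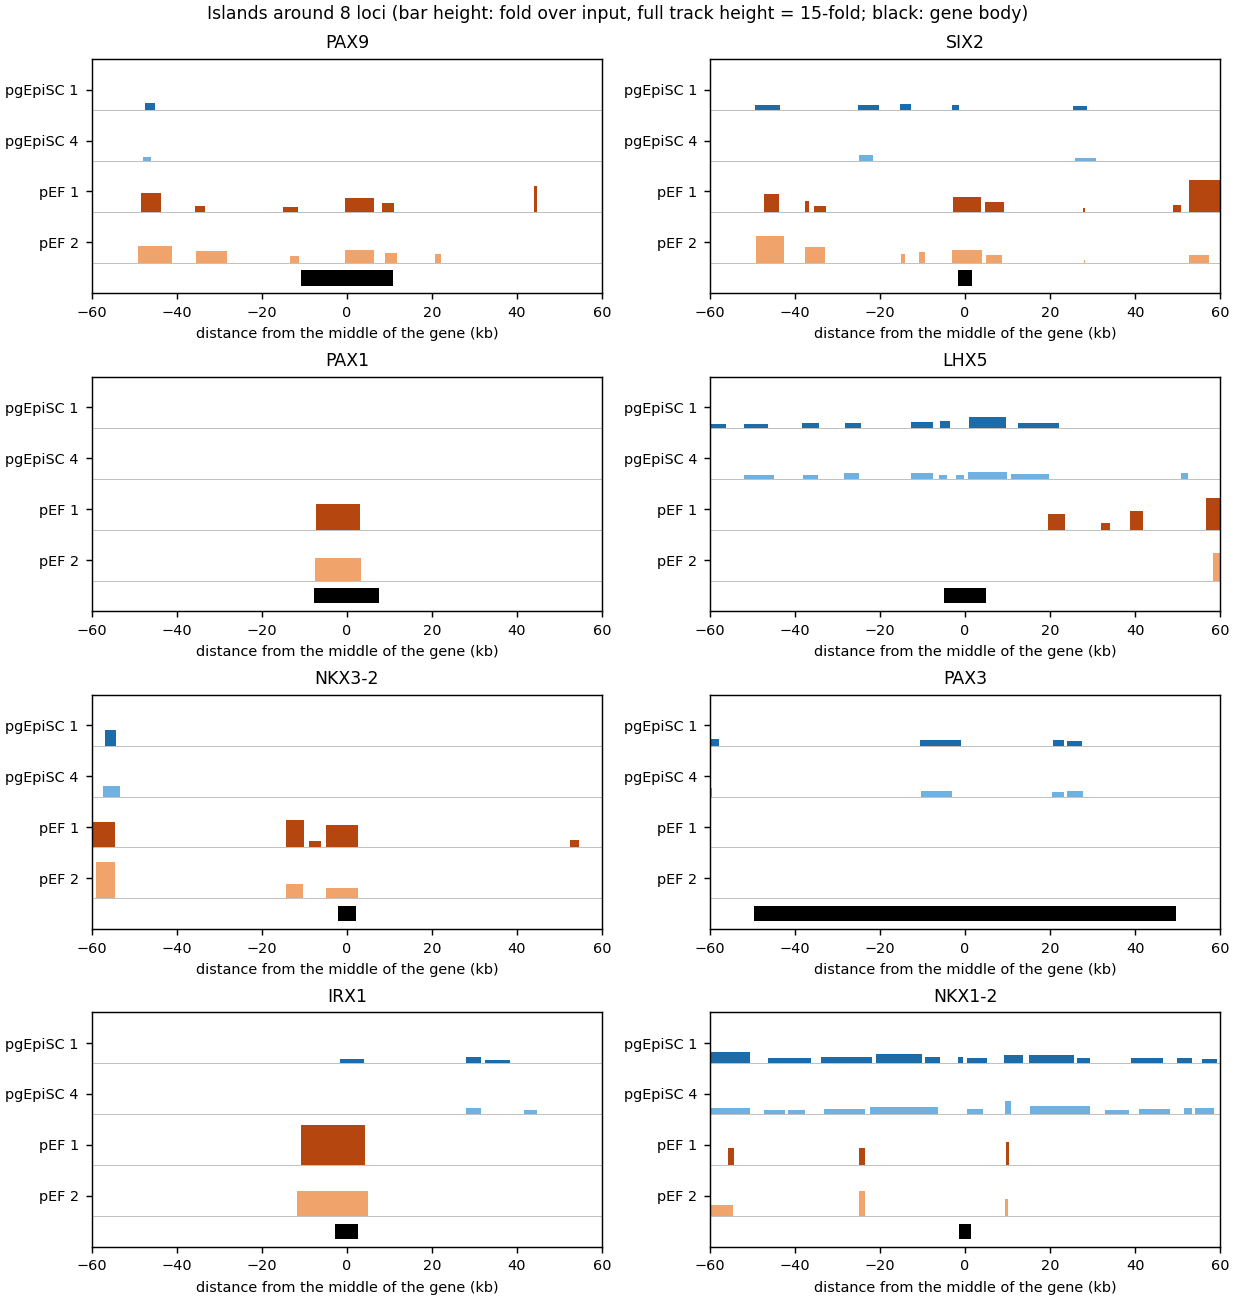
Islands of the 4 libraries around 8 of the genes, picked after their values were seen, by distance from the middle of the gene. Bar height is the fold over input and the black bar is the gene body. PAX1 and NKX3-2 have pEF islands over the gene and no pgEpiSC island within 10 kb of it, while the islands at LHX5, PAX3 and NKX1-2 in pgEpiSC are wider-spread and lower.

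The 22 genes that did not pass held 6 with no island in any library, which is 15 percent of the 40 against 3.74 percent of all genes. These were NKX1-1, NKX2-1 (thyroid and lung), NKX2-3 (gut mesoderm and spleen), NKX2-4, NKX2-5 (heart) and IRX6. PAX2 and PAX6 had islands in all 4 libraries without a difference past the threshold. PAX6, the regulator of eye and pancreas, had 9.0 and 9.2 kb in pgEpiSC and 16.8 and 9.2 kb in pEF, and the 2 types used different places: 1.1 and 0.1 kb in pgEpiSC and 13.2 and 6.6 kb in pEF lay in the gene body, and 3.5 and 3.7 kb in pgEpiSC and 0 kb in pEF lay in the neighbouring gene ELP4. PAX6 was higher in pEF when centred (adjusted p = 0.0455) or when islands under 2-fold were left out (0.0193). PAX2, a kidney and ear gene, had 2.0 and 8.2 kb against 4.4 and 4.4 kb. LHX4, a pituitary and motor neuron gene, had 3.2 and 8.2 kb in pgEpiSC and 1.8 and 1.6 kb in pEF (adjusted p = 0.135). Its direction depended on the islands taken: with those of at least 2-fold LHX4 had 0 kb in pgEpiSC and was higher in pEF (0.00692), while without pgEpiSC 1 it was higher in pgEpiSC (0.0414). LHX6, NKX2-6, NKX2-8, NKX6-1 and PAX4 had at most 4.12 kb in any library.

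Where these genes carried islands, those in pgEpiSC were low. Of the 26 and 23 genes with an island in pgEpiSC 1 and 4, 11 and 8 had any island of at least 2-fold over input (42.3 and 34.8 percent). Over all genes with an island in these libraries the shares were 86.5 and 78.9 percent. In pEF all 24 of the 24 genes with an island in each library had such an island, against 99.05 and 99.03 percent of all genes. The median of the highest island, over those of the 40 genes with any, was 1.92- and 1.65-fold in pgEpiSC 1 and 4 and 6.96- and 4.35-fold in pEF 1 and 2, and over all genes with an island 2.91- and 2.63-fold and 8.71- and 7.83-fold. In the higher of the pgEpiSC libraries the window of LHX9 reached 4.12-fold, that of NKX1-2 3.82-fold and that of SIX4 3.69-fold. The first 2 of these islands lay outside the gene bodies. Within its window the LHX9 island lay in C10H1orf53, and the NKX1-2 island lay 9.36 to 10.8 kb from the middle of the gene. These folds are the authors' values, scaled within each list, and the share of the lower enrichment in the lengths compared here was not tested.

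ChIP reads could be compared only where all 4 libraries had islands. Islands of the 4 libraries that overlapped were merged, and of 20796 regions called in all of them, 15 touched the windows of 10 of the genes. A library's count for a region was the reads inside its own islands there, so it depends on island length as well as height. By edgeR's quasi-likelihood test with Benjamini-Hochberg adjustment, pEF was higher at 5 of the 15, pgEpiSC was higher at 3, and 7 did not pass, where 23.3 and 22.6 percent of all such regions were higher in pEF and in pgEpiSC. The median log2 fold change was -0.78 over the 15 and -0.0043 over all. The region over SIX3 had 262 and 187 against 5356 and 1302 island reads (log2 fold change -3.46, adjusted p = 0.0193), with a wide gap between the pEF libraries. The types differed there in island length and height. The longest island in the SIX3 window was 2.2 and 2.6 kb in pgEpiSC and 20.8 and 8.4 kb in pEF. The highest stood at 1.69- and 1.20-fold against 9.39- and 3.89-fold. IRX5 had 347 and 380 reads against 4301 and 2609 (log2 fold change -2.84, adjusted p = 0.00336), and IRX2 had 319 and 409 against 2497 and 1553 (log2 fold change -2.08, adjusted p = 0.00667). Another lay in the flank of LHX9, at 254 and 241 against 1323 and 1125 reads (log2 fold change -1.88, adjusted p = 0.00630). The island bases of this flank lay in the neighbouring gene C10H1orf53.

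The 3 regions higher in pgEpiSC lay outside gene bodies of the 40. A 28.0 kb region beside NKX1-2 (chromosome 14, 133820601 to 133848600) had 2180 and 2398 island reads in pgEpiSC and 282 and 322 in pEF (log2 fold change 3.34, adjusted p = 0.00133, edgeR). The pEF islands in it lay from -24.8 to -23.4 kb and from -25.0 to -23.4 kb around the middle of NKX1-2, at 5.18- and 7.40-fold over input. The pgEpiSC islands covered more of it, at 1.59- to 2.69-fold, so pEF had fewer reads in higher but shorter islands. A second region beside NKX1-2 had 337 and 315 against 192 and 131 reads (log2 fold change 1.44, adjusted p = 0.0308). A region beside SIX4, 1 of 3 in its window, had 1098 and 1578 island reads in pgEpiSC and 858 and 792 in pEF (log2 fold change 1.09, adjusted p = 0.0133). The region over the body of SIX4 did not differ past the threshold (1302 and 1767 against 2370 and 2168 reads, log2 fold change -0.16, adjusted p = 0.513). Without pgEpiSC 4 the test gave 2 regions higher in pEF, without pgEpiSC 1 it gave 3, and in both cases 1 was higher in pgEpiSC.

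**Figure D4:**
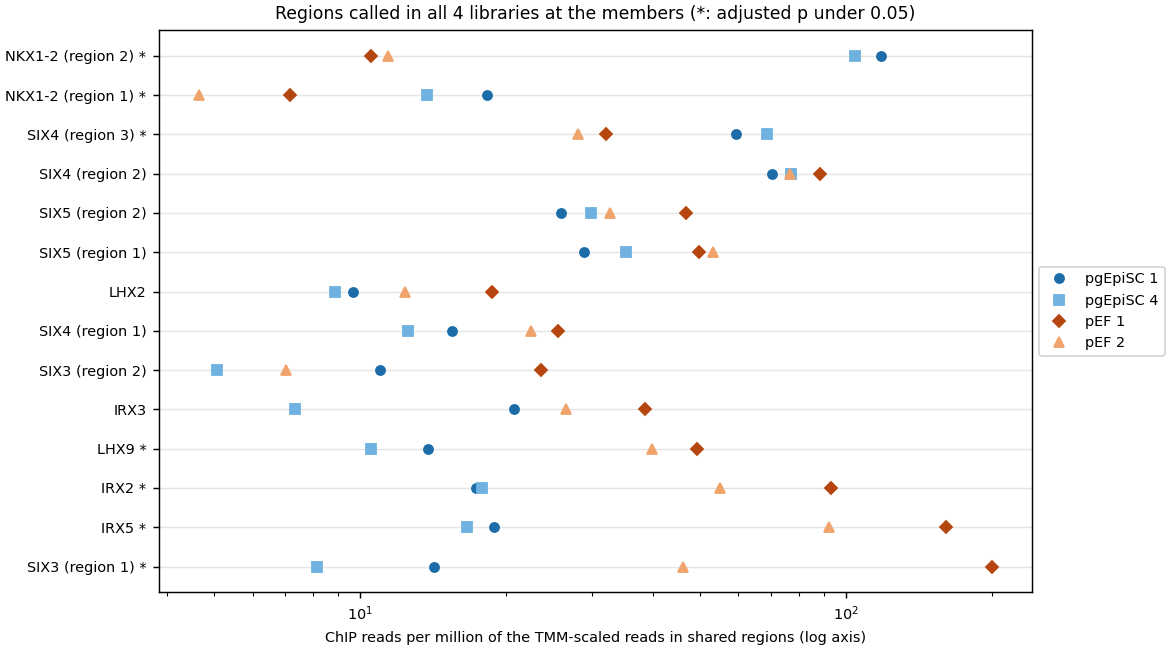
Scaled ChIP reads within each library's own islands (log axis, counts over the TMM-scaled library total) for 14 of the 15 regions called in all 4 libraries. Each library is 1 point, and an asterisk marks an adjusted p under 0.05. IRX5 and IRX2 have both pEF points well above both pgEpiSC points, and the regions beside NKX1-2 show the reverse.

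Islands at a gene end were counted within 2 kb on either side of either end, because the gene table gives no strand and so no start site. Such an island was present in all 4 libraries at 8 of the 40 genes (20 percent, against 67.8 percent of all genes) and in none at 14 (35.0 percent, against 10.1 percent). PAX1, PAX9, NKX2-2 and NKX3-2 had end islands in both pEF libraries only, a pattern of 4.48 percent of all genes, and LHX5, LHX8 and NKX1-2 in both pgEpiSC libraries only, a pattern of 7.31 percent. Among the 8 with end islands in all libraries were SIX3, SIX4, SIX5, IRX2, IRX3, IRX5 and PAX5. PAX3, PAX7, NKX6-2, NKX6-3 and LHX9 differed in length with no end island in any library, which places their acetylation inside the gene or out in the flanks. With islands of at least 2-fold the number in pEF only rose to 14 and that in pgEpiSC only was 2.

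The share of bases under islands was also taken by distance, as a description with no test. Bases were pooled over genes, so long gene bodies weigh most. In the bodies of the 40 genes 10.8 and 12.3 percent of bases lay under islands in pgEpiSC and 12.3 and 10.9 percent in pEF, so the types overlapped. From 10 to 50 kb out on both sides the shares were 14.9 and 15.1 percent in pgEpiSC and 6.0 and 5.15 percent in pEF, with pgEpiSC above. Over all genes pgEpiSC was above at both distances, with 21.6 and 22.5 against 14.2 and 14.4 percent in bodies and 23.6 and 24.8 against 16.0 and 15.3 percent from 10 to 50 kb. In the IRX family the order of the types turned between body and outer band. The IRX bodies were covered over 35.2 and 20.7 percent in pgEpiSC and 58.4 and 49.7 percent in pEF, and their outer bands over 15.3 and 15.6 percent against 0.417 and 0 percent. PAX bodies, pooled, went the other way, with 9.64 and 13.1 percent in pgEpiSC and 6.27 and 5.15 percent in pEF. The long bodies of PAX5 (210.5 kb), PAX7 (107.8 kb) and PAX3 (99.2 kb) were covered more in pgEpiSC. Those of PAX1 (0 and 0 against 10.2 and 10.8 kb), PAX9 (0 and 0 against 9.33 and 8.73 kb) and PAX6 (1.15 and 0.149 against 13.2 and 6.6 kb) were covered more in pEF.

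At single IRX genes the outer bands held 9.6 and 6.6 kb around IRX1, 9.73 and 16.0 kb around IRX2, 33.6 and 36 kb around IRX4, 3.2 and 6.2 kb around IRX3, 7.8 and 8.0 kb around IRX5 and 9.45 and 2.2 kb around IRX6 in pgEpiSC 1 and 4. In pEF the same bands held 2.0 kb around IRX5 in pEF 1 and nothing elsewhere. The band around IRX4 includes the gene NDUFS6, and no other protein-coding gene lies in those of the other 5. With a window of 50 kb IRX4 was thus higher in pgEpiSC (34.8 ± 1.66 against 0.9 ± 1.27 kb, log2 difference 4.42, adjusted p = 0.00653, limma), IRX6 too (5.83 ± 5.13 against 0 kb, adjusted p = 0.0300), and IRX2 and IRX5 did not pass (adjusted p = 0.749 and 0.864). Over the 40 genes that window gave 12 higher in pgEpiSC and 8 in pEF, with 7 and 5 of the earlier calls kept, against 43.5 and 13.1 percent of all genes. Bands of neighbouring genes such as SIX2 and SIX3 overlap and were counted for each gene.

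**Figure D5:**
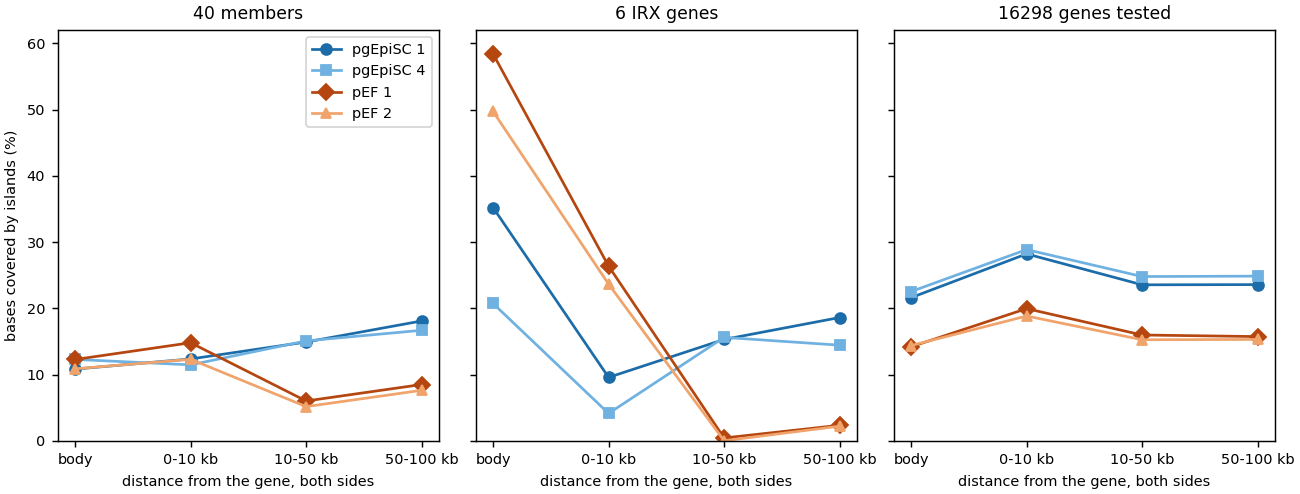
Share of bases under islands in gene bodies and at 3 distances on both sides, per library, for the 40 genes, the 6 IRX genes and all genes tested. For the IRX genes pEF lies above pgEpiSC in the body and at 0 to 10 kb and falls to 0.417 and 0 percent at 10 to 50 kb.

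Cofactors and signals of these families were read from lists chosen with earlier results of these data known, and their counts stand against 31.9 percent of all genes higher in pgEpiSC and 10.9 percent higher in pEF. Of the 6 EYA and DACH genes, partners of PAX and SIX-family factors, pgEpiSC was higher at 4 and pEF at 0. DACH1 had 194.0 and 193.8 kb in pgEpiSC and 30.6 and 40.2 kb in pEF, EYA4 had 104.8 and 92.2 against 17.2 and 13.2 kb, and DACH2 had 30.4 and 26.6 against 2.8 and 0 kb. EYA1 (log2 difference 0.68, adjusted p = 0.0577, limma) and EYA3 (-0.997, adjusted p = 0.0732) did not pass. EYA3 went the other way, with the pEF libraries above those of pgEpiSC. When centred, and also with a window of 50 kb, EYA3 was higher in pEF, and DACH1, DACH2 and EYA4 were higher in pgEpiSC. With islands of at least 2-fold EYA4 alone of the 6 passed. Of 13 LIM-domain partners and related genes, pgEpiSC was higher at 5 and pEF at 0, shares of 38.5 and 0 percent, the first near that of all genes. Among the 5 were LDB2, a bridging cofactor of LHX factors, at 132 and 182.6 against 23.4 and 44.0 kb, LMO3, at 56.0 and 44.2 kb against no island, and SSBP2. With islands of at least 2-fold LMO3 was higher in pgEpiSC and LMO1 in pEF. Of 3 measured Groucho corepressors, which NKX and SIX-family factors recruit, TLE3 and TLE4 were higher in pgEpiSC and TLE2 in pEF, at 2.0 and 2.0 against 7.61 and 6.0 kb. TLE4 with 2-fold islands turned to a log2 difference of -1.09 and did not pass (adjusted p = 0.0501), and with a window of 50 kb TLE2 did not (0.0642). TLE1 and TLE5 were not matched in the gene table.

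The hedgehog pathway, which induces PAX1, NKX3-2 and NKX2-2 in the embryo, had 6 of 14 genes higher in pgEpiSC, 2 higher in pEF and 6 not past the threshold. These are 42.9 and 14.3 percent, not far from the shares of all genes. SHH, the ligand, had 11.5 and 16.5 kb in pgEpiSC but no island in pEF (adjusted p = 0.00499, limma). PTCH1, its receptor, had 72.0 and 69.8 against 9.2 and 8.0 kb (adjusted p = 0.00290). The 2 higher in pEF, GLI3 and GAS1, are named here with their values known. With islands of at least 2-fold the counts were 2 (SHH and PTCH1) and 3. Among 37 other patterning homeobox genes pgEpiSC was higher at 8 and pEF at 11, and 2 and 14 passed with islands of at least 2-fold. Their median log2 difference was 0 as in the 40 genes. In each set the median fell on genes with no island in any library, whose difference is 0. EVX2 had no island in pgEpiSC and 12.8 and 15.4 kb in pEF, and EMX2 had 2.4 and 0 against 20.5 and 21.3 kb.

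Markers of the labelled cell types mostly followed the labels. Of 9 epiblast stem cell markers 8 were higher in pgEpiSC, CDH1 among them at 61.8 and 69.6 against 9.2 and 16.8 kb, with SALL4, PRDM14 and OTX2 at 0 kb in pEF and a summed length of 265 and 264 kb against 30.6 and 36.4 kb. Of 9 fibroblast markers 6 were higher in pEF, FN1 among them at 12 and 9.4 against 91.6 and 81.9 kb. COL1A2, COL3A1 and TWIST1 were at 0 kb in pgEpiSC, and the sum was 104 and 75.3 against 396 and 375 kb. NANOG did not pass, at 12.6 and 6.8 against 4.8 and 3.0 kb. Nor did PRRX1 (40.5 and 16.4 against 77.8 and 78.3 kb), THY1 and PDGFRB, and the types overlapped at THY1 and PDGFRB. With islands of at least 2-fold, 7 epiblast markers passed toward pgEpiSC and 7 fibroblast markers toward pEF, SOX2 and FN1 not among them. A window of 50 kb gave 8 and 7, and PDGFRB was then higher in pgEpiSC. For cell types that the labels do not name, the counts in pgEpiSC and pEF were 1 and 1 of 6 neural markers, 0 and 0 of 6 skeletal muscle, 2 and 2 of 6 cartilage and bone, 2 and 1 of 5 kidney and gonad, 3 and 0 of 5 endothelial and 0 and 1 of 5 blood markers. Islands of at least 2-fold gave 0 and 1 neural, 0 and 2 muscle, 0 and 1 cartilage and bone, 1 and 1 kidney and gonad, 0 and 1 endothelial and 0 and 1 blood markers. A window of 50 kb gave 0 and 1 neural, 0 and 4 muscle, 3 and 2 cartilage and bone, 2 and 2 kidney and gonad, 4 and 0 endothelial and 3 and 0 blood markers. Summed lengths of these lists, in the same order, were 46.1 and 52.6, 29.3 and 31.9, 85.2 and 80.8, 16.8 and 19.4, 59.3 and 69.3, and 54.1 and 38.2 kb in pgEpiSC, and 42 and 37.6, 36.9 and 49.2, 77.4 and 80.2, 69.0 and 68.4, 15.2 and 21.8, and 19.4 and 23.0 kb in pEF. SOX1 and MYOD1 were at 0 kb in all 4 libraries, and WT1 was at 0 kb in pgEpiSC and pEF 1 and 2.2 kb in pEF 2. OSR1, a kidney and limb mesenchyme gene, had 7.2 and 7.2 against 66.2 and 65.0 kb. The 2 of that list higher in pgEpiSC were GATA4 (8.2 and 9.56 against 2.8 and 1.2 kb) and NPHS1 (1.4 and 2.6 against 0 kb). The part of such cells in the lengths at the 40 patterning genes was not tested.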

How the data were processed

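Per the submitters' processing notes, BWA 0.7.15, SAMtools 0.1.19 and SICER 1.1 were used. The genome build and read filters are not given in the sources used here. Deposited lists, 1 per H3K27ac library and not pooled, hold ChIP and input read counts per island, p-values and FDR against input, and a fold, the ratio of ChIP to input scaled to library size. Genes came from the RefSeq table of Sscrofa11.1. On 19 of 19 chromosomes islands covered gene ends more often than spots 20 kb away, which was the ground for using it. With no strand in it, either gene end stood in for the planned start site.

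Acetylated length over 16298 genes was tested by limma 3.58.1 (trend, pseudocount 1 kb, 2 residual degrees of freedom). ChIP reads in 20796 regions merged by at least 1 bp of overlap were tested by edgeR 4.0.16 (quasi-likelihood, TMM factors 0.909 to 1.08). Each library's count took in only the reads of its own islands. DESeq2 1.42.0 was an alternative. The groups have 2 libraries each, which limits precision. The edgeR test took in the spread between the libraries of a type as well as counting error. Genes without islands stayed in the limma fit, where their variance of 0 was offset. Overlap and both fits were tested on simulated data. R 4.3.3, Python 3.11.15, numpy 2.4.6, pandas 2.3.3 and matplotlib 3.10.9 were used.

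The genes, lists and tests were chosen with earlier results of these data known. The naming rule took every gene of the 5 families, with full values for those past the threshold and the 3 with the greatest mean length that did not pass. It also took up to 3 genes past the threshold per partner list and the 3 longest per marker list. Alternatives covered the pseudocount, a minimum length, centring, islands filtered by fold or FDR, the window and each library left out. Values of some genes that these rules take are not reported here, though counts include them.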

Additional observations from a re-analysis of the deposited data

How the results depend on the processing

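The alternatives were fixed with earlier results known, and the cause of each shift below was not tested. No paired analysis was possible because the 2 types share only the replicate number 1. Of the 40 genes, 9 were higher in each type. The gene body alone left 5 higher in pgEpiSC and 7 in pEF, and islands of at least 2-fold over input gave 1 in pgEpiSC and 15 in pEF. Centring on the median gene gave 7 in pgEpiSC and 13 in pEF. Leaving out 1 library gave 4 to 9 in pgEpiSC and 5 to 6 in pEF. Over all genes, 2-fold islands gave 1150 and 2692, centring gave 3853 higher in pEF, and leaving out 1 library gave 1684 to 2188 in pgEpiSC and 548 to 829 in pEF. Shared regions higher in pEF numbered 5, but 1 with 2-fold islands and 2 to 6 without 1 library, and those higher in pgEpiSC 3, but 1 to 3 without 1 library. Genes with end islands in pEF only numbered 14 with 2-fold islands, 10 with an FDR under 1e-10 and 5 to 8 without 1 library, in place of 4. Depth is known only as reads within islands, and genes below the calling threshold are listed at 0 kb.

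The sign of the log2 difference (pgEpiSC minus pEF) turned for these genes, with values under each setting. With 50 kb on either side it was IRX3 0.89, PAX2 0.30, IRX2 0.13, IRX4 4.42, NKX6-3 -0.060, PAX4 0.16, NES 0.070 and MYOG -0.88. Centred on the median gene it was SIX4 -0.13, LHX6 -0.25, SIX5 -0.62, NKX2-6 -0.29, SOX9 -0.15 and SPI1 -0.10. In the gene body alone it was SIX6 0.12, LHX6 -0.076, SIX5 -0.26, LHX4 -0.57, PAX2 0.76, NES 0.087, MYF5 0.054 and SPI1 -0.15. With 2-fold islands it was PAX5 -1.76, LHX6 -0.50, SIX5 -0.67, LHX4 -1.43, SSBP2 -1.51, TLE4 -1.09, NES 0.075, ELAVL3 -1.14, NEUROG2 -1.18, MYOG -1.86, SOX9 -3.09, GATA4 -1.53, PECAM1 -1.99, CDH5 -1.56 and SPI1 -0.32. With an FDR under 1e-10 it was NES 0.0095, CDH5 -0.39 and SPI1 -0.029. With a pseudocount of 5 kb it was PAX2 0.032. Leaving out 1 library gave -0.93 to 0.55 for SIX6, -0.50 to 1.27 for LHX6, -0.85 to 0.64 for IRX3, -0.15 to 0.16 for SIX5, -0.85 to 0.77 for PAX2 and -0.18 to 0.11 for NES.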
